A study of Homo sapiens with 12 samples.

Results

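A set of 10 genes for secreted cytokines and chemokines, IL8, IL6, IL1A, IL1B, IL11, CXCL1, CXCL2, CCL2, LIF and CSF1, was followed in melanoma cells carrying mutant forms of the transcriptional coactivator YAP. The members are signals that tumor cells can send to leukocytes and vessels, and each was taken as the entry of the expression table whose gene symbol it carries. All 10 were found among 31585 distinct loci, and 8 of the 10 were among the 15055 loci with a level high enough to be tested. IL6 and CXCL2 were below that limit and are given mainly by their values.

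The cells were A375, an established hypotriploid human melanoma line, transduced with an MSCV retrovirus and selected with hygromycin, so that every group carried a vector and the drug selection. The Control line held the empty vector. The YAPS127A line expressed YAP with the S127A substitution, and the YAPS127A,S94A line added S94A to it. The YAP2SA line expressed YAP with S127A and S381A. The condition field of the YAP2SA libraries also lists S94A, which their titles do not, and the titles were followed. Each group had 3 libraries of polyadenylated RNA from separately plated cultures of 1 stably transduced line, so the spread between libraries is the spread between platings, not between transductions or cell lines.

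YAP acts in the nucleus by binding TEAD transcription factors, and the serines replaced in S127A and S381A are residues through which the Hippo kinases restrain it, the first by holding it in the cytoplasm and the second by marking it for breakdown. The serine replaced in S94A lies in the surface that contacts TEAD, so this form is used as a YAP that binds TEAD poorly. IL8, CXCL1 and CXCL2 are CXC chemokines that draw neutrophils through the receptors CXCR1 and CXCR2, and CCL2 draws monocytes through CCR2. CSF1 keeps macrophages alive through its receptor CSF1R. IL1A and IL1B signal through the same receptor pair and induce many other cytokines, while IL6, IL11 and LIF share the signalling chain gp130, which activates STAT3. In many cells these genes are switched on through NF-kappaB and AP-1 sites close to their start.

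The 250 bases before the start of each gene were read from RefSeq on GRCh38.p14, whose coordinates are not those of the expression table. They matched 7 of the 10 members, and CCL2, LIF and CSF1 were not among them. The promoters of the 4 matched members that were called in the YAP2SA line are shown first. Those of CXCL1 and CXCL2 follow, chosen after their letters were seen, because these chemokines lie in the same cluster as IL8. CXCL1 was tested and not called, whereas CXCL2 was not tested and so could not be called. IL1A has 2 start sites in the table, and the window of the second, which held more matches, is shown. Capitals mark matches to TGANTCA, the AP-1 motif, or to GGGRNNYYCC, the NF-kappaB motif, searched on both strands. R stands for A or G, Y for C or T and N for any base.
IL8, chr4:73740319-73740568, plus strand: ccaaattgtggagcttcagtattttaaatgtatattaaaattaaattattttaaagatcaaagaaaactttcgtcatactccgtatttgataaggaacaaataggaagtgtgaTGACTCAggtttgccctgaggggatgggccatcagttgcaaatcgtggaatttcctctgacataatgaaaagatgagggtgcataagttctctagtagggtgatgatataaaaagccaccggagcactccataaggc
IL1A, chr2:112784401-112784650, minus strand: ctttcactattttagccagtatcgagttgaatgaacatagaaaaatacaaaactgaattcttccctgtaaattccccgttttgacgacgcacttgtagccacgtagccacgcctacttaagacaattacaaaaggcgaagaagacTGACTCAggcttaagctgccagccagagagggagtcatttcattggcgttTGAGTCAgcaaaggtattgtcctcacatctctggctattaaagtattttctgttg
IL11, chr19:55370464-55370713, minus strand: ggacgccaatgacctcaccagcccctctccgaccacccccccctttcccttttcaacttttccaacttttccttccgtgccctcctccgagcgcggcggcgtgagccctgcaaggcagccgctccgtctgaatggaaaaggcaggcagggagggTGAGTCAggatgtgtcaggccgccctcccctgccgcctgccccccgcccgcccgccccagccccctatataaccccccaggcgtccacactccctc
IL1B, chr2:112836780-112837029, minus strand: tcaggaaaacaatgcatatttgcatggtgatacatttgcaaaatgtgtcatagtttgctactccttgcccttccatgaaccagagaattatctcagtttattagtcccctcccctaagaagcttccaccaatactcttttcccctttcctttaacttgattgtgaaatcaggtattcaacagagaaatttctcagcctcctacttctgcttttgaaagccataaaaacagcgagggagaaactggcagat
CXCL1, chr4:73869143-73869392, plus strand: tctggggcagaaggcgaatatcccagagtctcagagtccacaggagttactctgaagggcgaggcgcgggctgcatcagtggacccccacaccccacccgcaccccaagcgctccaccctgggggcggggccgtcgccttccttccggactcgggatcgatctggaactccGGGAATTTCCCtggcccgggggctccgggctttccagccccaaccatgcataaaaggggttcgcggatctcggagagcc
CXCL2, chr4:74099196-74099445, minus strand: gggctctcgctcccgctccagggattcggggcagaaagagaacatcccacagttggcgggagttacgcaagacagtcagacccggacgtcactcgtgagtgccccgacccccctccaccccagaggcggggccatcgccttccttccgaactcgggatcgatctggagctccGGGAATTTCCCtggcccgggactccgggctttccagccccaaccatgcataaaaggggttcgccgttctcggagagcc
The IL8 window held 1 AP-1 match, from base -137 to -131 counted from the start. It also holds tggaatttcc, which differs from the CXCL1 match GGGAATTTCC only in its first letter and was therefore not counted. The lack of a marked NF-kappaB match in IL8 thus depends on the letters searched. IL1A held an AP-1 match from -105 to -99 and another from -55 to -49, and IL11 held 1 from -96 to -90. The window of the first IL1A start, not shown, held 1 AP-1 match, from -12 to -6 of that start. None of the searched letters was found in the IL1B window. CXCL1 and CXCL2 each held a pair of overlapping NF-kappaB matches on opposite strands, GGGAATTTCC and GGAATTTCCC, starting at -79 and -78 in CXCL1 and at -78 and -77 in CXCL2. The IL6 window, not shown, held 1 NF-kappaB match from -73 to -64. The letters CATTCC, to which TEAD factors bind, were in none of the 8 windows of the 7 matched members, which says only that these letters are not there. Over 35116 RefSeq windows of the same length, AP-1 letters were in 6.57%, NF-kappaB letters in 9.96% and CATTCC in 11.9%.

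Levels are FPKM, fragments scaled to transcript length and library size, so they can be compared between genes, and differences are on the log2(FPKM + 1) scale of the deposited table, which understates the change of low genes. The sum of FPKM was 790865 to 901558 per library, and 20161 to 20656 loci were above 0. The number of reads behind each value is unknown. YAP1, the gene of the vectors, was at 34.1, 33.0 and 172 FPKM in the 3 Control libraries, and at 130 to 187 FPKM in the 9 libraries of the YAP lines, so the library labelled Control replicate 3 stood at the YAP1 level of the transduced lines. The differences of the tested members from Control were therefore also computed without it. For the related gene lists below, only the counts of calls in YAP2SA and YAPS127A against Control were recomputed. Values of single listed genes and of the lineage markers are given with all Control libraries only. Of 7 melanoma lineage markers, SOX10, S100B, CSPG4 and MITF were tested, whereas PMEL, MLANA and TYR stayed below 1 FPKM in all 12 libraries. The summed level of the 7 was 342 to 432 FPKM in Control, 368 to 420 in YAPS127A,S94A, 282 to 368 in YAPS127A and 74.5 to 85.3 in YAP2SA. By both thresholds used below, 2 of the 4 tested markers fell in YAP2SA against Control, SOX10 and S100B, and 1 rose, MITF. Of all tested loci, 7.86% fell and 7.59% rose by these thresholds. CSPG4 was lower by -0.92 (limma adjusted p = 0.000667), past the adjusted p but not the fold limit. SOX10 was at 234 to 281 FPKM in Control and 4.53 to 7.25 in YAP2SA, and MITF at 5.01 to 11 and 30.1 to 41.0 (log2 difference 1.96, limma adjusted p = 0.000126). Markers of leukocytes, the other makers of these cytokines, summed to 0.136 to 0.833 FPKM per library over 7 genes, 2 of which were at 0 in all 12, and 5 endothelial genes summed to 0.817 to 1.52. The part of the lineage markers in the results below was not tested.

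Against the Control, the YAP2SA line had more CSF1, IL11 and IL1B transcript and less IL8 and IL1A. By an adjusted p under 0.05 in limma and a ratio of group means over 2, 3 of the 8 tested members rose and 2 fell, where 7.59% of all tested loci rose and 7.86% fell. The same 3 and 2 passed on the adjusted p alone, at which 22.9% of loci rose and 19.5% fell. The median difference was 0.37 over the tested members and 0.01 over all tested loci. IL1B reached the filter only through its 3 YAP2SA libraries, so its passing could only come with a difference. IL1A reached it only through libraries of Control and YAPS127A,S94A, the groups where it was high. CXCL1, CCL2 and LIF did not pass. Without Control replicate 3 the same members were called, with differences of 1.41 for CSF1, 0.94 for IL11, 1.12 for IL1B, -1.24 for IL8 and -1.12 for IL1A.

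**Figure D1:**
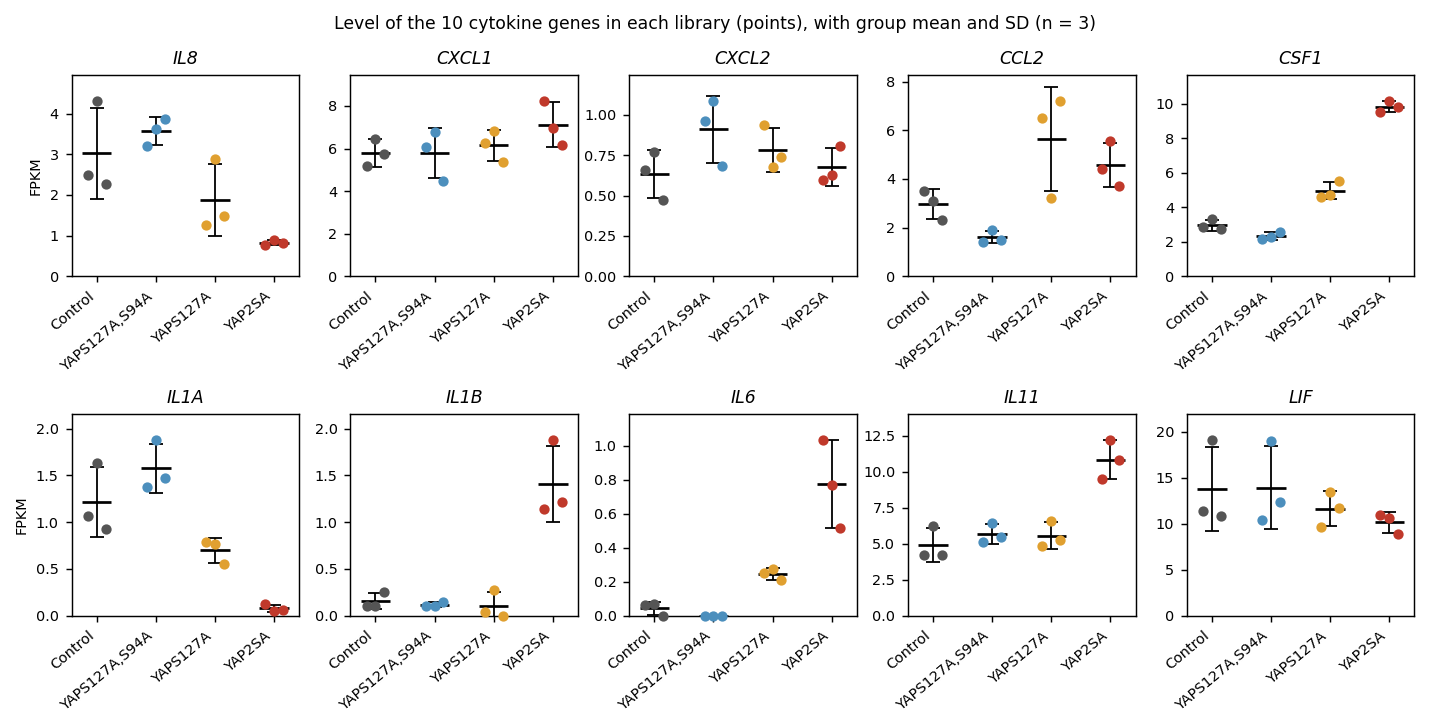
FPKM of the 10 members in the 4 groups, 1 panel a gene with its own linear axis from 0, points for the 3 libraries and bars for the mean with SD. CSF1, IL11, IL1B and IL6 are highest in the 3 YAP2SA libraries, and IL8 and IL1A are lowest there.

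CSF1, the macrophage growth factor, had the smallest p of the members. It was at 2.83, 3.31 and 2.72 FPKM in Control, 2.15, 2.26 and 2.58 in YAPS127A,S94A, 4.61, 4.71 and 5.53 in YAPS127A and 9.50, 10.2 and 9.80 in YAP2SA. No group overlapped another, and the order ran from YAPS127A,S94A through Control and YAPS127A to YAP2SA. The level in YAP2SA was 3.32 times that of Control, with a log2 difference of 1.45 ± 0.09 (SE, n = 3 per group, limma adjusted p = 2.78e-07). YAPS127A stood 0.59 ± 0.09 above Control, a ratio of 1.67 that passed the adjusted p (0.00233, and 0.0118 without Control replicate 3) but not the fold limit. CSF1 was also higher in YAP2SA than in YAPS127A by 0.87 (adjusted p = 2.75e-05, ratio 1.98), and in YAPS127A than in YAPS127A,S94A by 0.84 (adjusted p = 0.000166, ratio 2.13). The lower values of YAPS127A,S94A against Control, a difference of -0.25 with an adjusted p of 0.919, were not a call although the groups did not overlap. Among neighbours in the order, the steps from Control to YAPS127A and from YAPS127A to YAP2SA passed the adjusted p alone, and no neighbouring step passed the fold limit as well.

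The loci whose levels followed CSF1 most closely over the 12 libraries were CLU, ADAMTS12, LOC100505817, IRS1 and L1CAM, each with a Pearson r of 0.992 on the log2 scale. These points fall into 4 groups of 3 libraries, so the likeness is mostly that of the group means. L1CAM, a cell adhesion molecule, had mean levels of 12.4 FPKM in Control, 9.45 in YAPS127A,S94A, 32.3 in YAPS127A and 101 in YAP2SA. CLU, a secreted chaperone, had 2.84, 2.62, 7.47 and 21.8 FPKM in the same order.

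IL11, a gp130 cytokine that acts on stromal cells, was at 4.20, 6.26 and 4.24 FPKM in Control, 5.10, 6.42 and 5.49 in YAPS127A,S94A, 4.82, 6.60 and 5.27 in YAPS127A and 9.48, 12.2 and 10.8 in YAP2SA. All 3 YAP2SA libraries were above all 9 others, which overlapped each other. The rise over Control was 1.02 ± 0.15 (SE, n = 3, limma adjusted p = 0.000327), a ratio of 2.21. Against YAPS127A it was 0.85 (adjusted p = 0.00163), with a ratio of 1.95 that falls just short of the fold limit. No Control library enters that difference, but the Control libraries enter the shared estimate of spread. Without Control replicate 3 the adjusted p was 0.00226. YAPS127A differed from Control by 0.16 (95% interval -0.18 to 0.50) and from YAPS127A,S94A by -0.03 (-0.37 to 0.31).

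LIF, which also signals through gp130, had the highest mean level of the members in Control, YAPS127A,S94A and YAPS127A. In YAP2SA its mean was 10.1 FPKM, below the 10.8 of IL11. The LIF levels were 11.4, 19.1 and 10.8 FPKM in Control, 10.4, 19.0 and 12.3 in YAPS127A,S94A, 9.66, 13.4 and 11.7 in YAPS127A and 10.9, 10.6 and 8.84 in YAP2SA. All 4 groups overlapped. The difference of YAP2SA from Control was -0.37 (95% interval -0.90 to 0.16, limma adjusted p = 0.245), so a fall of nearly 1 log2 unit and a small rise both lie within the interval. The LIF locus overlaps the opposite-strand transcripts LIF-AS1 and LIF-AS2, and whether the reads were counted by strand is not stated.

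IL6, the best known gp130 cytokine, was close to the bottom of the scale. It was listed at 0.0607, 0.0688 and 0 FPKM in Control, at 0 in all 3 YAPS127A,S94A libraries, at 0.249, 0.275 and 0.207 in YAPS127A and at 1.03, 0.770 and 0.518 in YAP2SA. The YAP2SA libraries were above all others and the YAPS127A libraries above both remaining groups. With the filter lowered to 0.5 FPKM or removed, IL6 entered the test and passed in YAP2SA against Control by 0.76 (adjusted p = 0.000112 and 0.00024), but it entered the lower filter through the YAP2SA libraries alone. Its locus overlaps STEAP1B and IL6-AS1 on the other strand, with the same limit on strand as for LIF.

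IL1A and IL1B, neighbours on chromosome 2 that activate the same receptor, moved in opposite directions in YAP2SA. IL1A was at 1.07, 1.64 and 0.927 FPKM in Control, 1.38, 1.88 and 1.47 in YAPS127A,S94A, 0.784, 0.769 and 0.546 in YAPS127A and 0.123, 0.0461 and 0.0622 in YAP2SA. The YAP2SA libraries were lowest, the YAPS127A libraries lay between them and the rest, and Control and YAPS127A,S94A overlapped. The fall in YAP2SA was -1.02 ± 0.13 against Control (SE, n = 3, limma adjusted p = 9.60e-05), with 15.7 times less transcript by the group means, and -0.66 against YAPS127A (adjusted p = 0.00306). The ratio of 15.7 rests on a YAP2SA mean of 0.077 FPKM, close to the bottom of the scale. YAPS127A was lower than YAPS127A,S94A by -0.60 (adjusted p = 0.0156, 2.25 times less). That call was lost without YAPS127A replicate 3 (adjusted p = 0.0557) and without YAPS127A,S94A replicate 2 (adjusted p = 0.0601). Against Control, YAPS127A differed by -0.37 without passing (adjusted p = 0.142).

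IL1B was at 0.102, 0.104 and 0.254 FPKM in Control, 0.10, 0.0981 and 0.149 in YAPS127A,S94A, 0.0410, 0.271 and 0 in YAPS127A and 1.14, 1.88 and 1.22 in YAP2SA. The 3 YAP2SA libraries stood above the other 9, whose groups overlapped. The difference was 1.05 ± 0.14 against Control (SE, n = 3, limma adjusted p = 0.000115) and 1.12 against YAPS127A (adjusted p = 0.000115). In YAPS127A it differed from Control by -0.07 (95% interval -0.37 to 0.24). IL1A lies at 113531502 to 113542070 of chromosome 2 on GRCh37, minus strand, and IL1B starts 52.3 kb from it on the same strand, at 113587328 to 113594393. In Control, YAPS127A,S94A and YAPS127A the IL1A level was higher than that of IL1B in every library, whereas in YAP2SA the order was turned in every library.

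**Figure D2:**
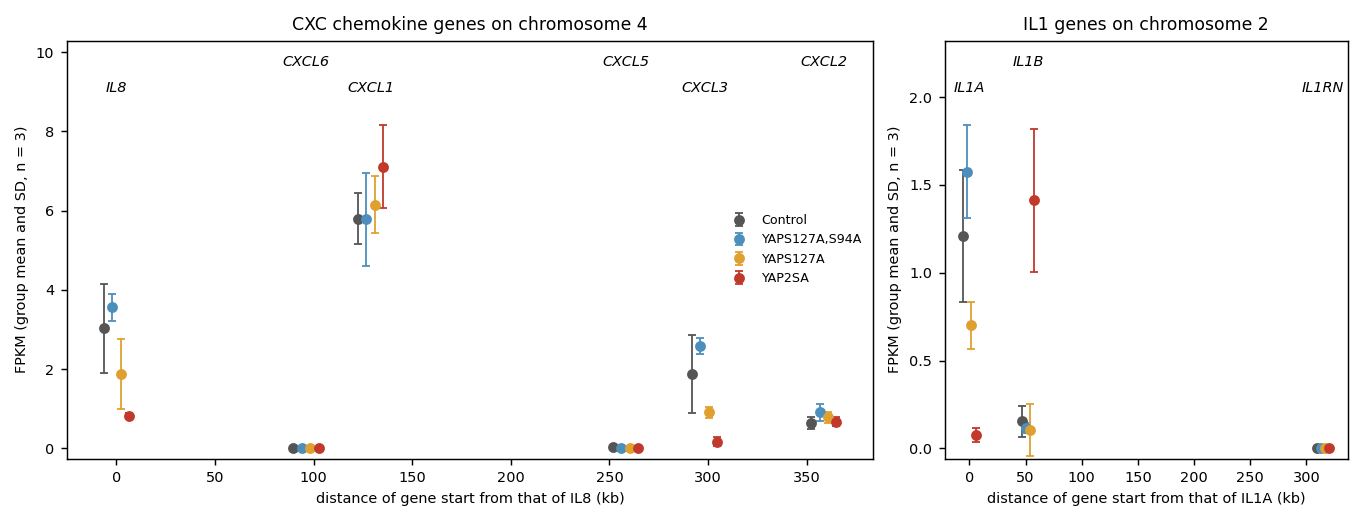
FPKM of the genes of the CXC and IL1 clusters, as group means (points) with SD (bars, n = 3), placed by the distance in kb of the gene start from that of IL8 or IL1A. IL1A is lowest and IL1B highest in YAP2SA, and IL8 and CXCL3 are lowest there.

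Of the CXC chemokines on chromosome 4, IL8 fell and CXCL1 did not pass. IL8, listed at 74606236 to 74609433 on the plus strand of GRCh37, was at 2.49, 4.31 and 2.28 FPKM in Control, 3.19, 3.63 and 3.87 in YAPS127A,S94A, 1.26, 2.88 and 1.49 in YAPS127A and 0.758, 0.882 and 0.826 in YAP2SA. YAP2SA was below every other library, YAPS127A overlapped Control, and YAPS127A,S94A was above YAPS127A without overlap. In YAP2SA the level was 3.68 times lower than in Control, a difference of -1.11 ± 0.22 (SE, n = 3, limma adjusted p = 0.00185). Against YAPS127A the difference was -0.62 with an adjusted p of 0.0506, and without YAPS127A replicate 2 the difference was -0.38 with an adjusted p of 0.164. The adjusted p was 0.0499 without Control replicate 3, the library with the high YAP1, 0.0252 without Control replicate 2 and 0.0308 without YAPS127A replicate 1, and ran from 0.0204 to 0.164 over all alternatives. YAPS127A against YAPS127A,S94A gave -0.70 (adjusted p = 0.0661), and the adjusted p was 0.0358 without Control replicate 2 and ran from 0.0133, without YAPS127A replicate 2, to 0.184 over all alternatives.

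CXCL1, 128.9 kb from IL8, was at 5.19, 6.47 and 5.72 FPKM in Control, 6.07, 6.77 and 4.49 in YAPS127A,S94A, 6.28, 6.80 and 5.37 in YAPS127A and 8.24, 6.94 and 6.16 in YAP2SA. The groups overlapped. YAP2SA differed from Control by 0.25 (95% interval -0.07 to 0.57, limma adjusted p = 0.189), an interval that leaves out a fall of the size seen for IL8. CXCL2, 358.7 kb from IL8, ranged from 0.474 FPKM in a Control library to 1.09 in a YAPS127A,S94A library, and all groups overlapped. CXCL3, a chemokine between CXCL1 and CXCL2 that is not one of the 10, was at 0.759, 2.29 and 2.59 FPKM in Control and 0.0747, 0.305 and 0.134 in YAP2SA, and fell by 1.24 on the log2 scale (limma adjusted p = 0.00118).

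CCL2, the monocyte chemokine, had its highest values in YAPS127A. It was at 3.49, 3.10 and 2.32 FPKM in Control, 1.43, 1.90 and 1.49 in YAPS127A,S94A, 6.51, 3.23 and 7.21 in YAPS127A and 4.43, 5.56 and 3.73 in YAP2SA. YAPS127A,S94A was lowest without overlap with any group, and YAPS127A overlapped both Control and YAP2SA, since its replicate 2 stood at the level of Control. YAPS127A exceeded YAPS127A,S94A by 1.30 ± 0.23 (SE, n = 3, limma adjusted p = 0.00557), a ratio of 3.52. Against Control it gave 0.70 (adjusted p = 0.121), 0.99 (adjusted p = 0.00764) without YAPS127A replicate 2, and 0.57 (adjusted p = 0.293) without Control replicate 3. YAP2SA against Control gave 0.49 (95% interval -0.03 to 1.0, adjusted p = 0.121), without overlap between the groups. Without YAPS127A replicate 2, the adjusted p of that difference was 0.0249, and YAP2SA was lower than YAPS127A by -0.51 (adjusted p = 0.0472, against -0.21 and 0.535 with it). Without Control replicate 3, YAP2SA against Control gave 0.36 (adjusted p = 0.313). YAPS127A,S94A lay below Control by -0.60 with an unadjusted p of 0.0271 and an adjusted p of 1.

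**Figure D3:**
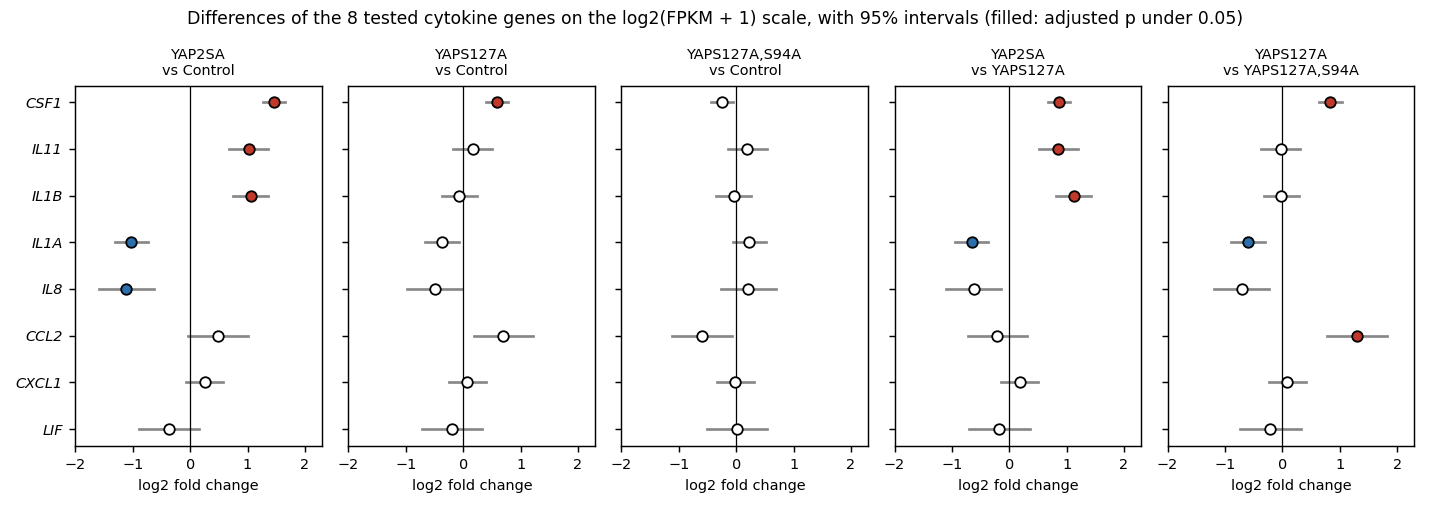
Log2 difference of each of the 8 tested members in the 5 comparisons, as points with 95% intervals from limma, a line at 0 and filled points for an adjusted p under 0.05. CSF1, IL11 and IL1B lie to the right of 0 and IL8 and IL1A to the left in YAP2SA against Control, and CCL2 and CSF1 lie to the right in YAPS127A against YAPS127A,S94A.

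In YAPS127A against Control, 0 of 8 members were called in either direction by limma, where 2.07% of loci rose and 0.405% fell, and 1 passed the adjusted p alone, CSF1, where 4.56% rose and 1.75% fell. At an unadjusted p under 0.05, CSF1 and CCL2 were higher and IL8 and IL1A lower. The share of all loci at that limit was not computed, so these members cannot be set against it. Between YAP2SA and YAPS127A, 1 member, IL1B, was called higher and 1, IL1A, lower, against 5.17% and 5.94% of loci. IL1B reached the filter only through YAP2SA, so here too its passing could only come with a difference, and its call is not support. With the adjusted p alone 3 were higher, IL1B, IL11 and CSF1, and 1 lower, against 18.3% and 14.5%. No Control library enters the differences of this contrast, although the Control libraries enter the estimate of spread behind its p-values. The comparisons against Control share the 3 Control libraries, and their member values are therefore given side by side and not as separate evidence.

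For YAPS127A,S94A against Control, as for YAPS127A, 0 of 8 members were called in either direction by limma, where 0.0797% of all loci rose and 0.093% fell, and the adjusted p alone gave 0 members where 0.0864% rose and 0.093% fell. With so few loci called, a count of 0 among 8 members does not set the members apart. At an unadjusted p under 0.05, CCL2 and CSF1 were lower and no member was higher, again without a share of all loci to set beside them. Between YAPS127A and YAPS127A,S94A, which differ in S94A, CCL2 and CSF1 were higher and IL1A lower in YAPS127A, which is 2 and 1 of 8 members where 2.54% of loci rose and 0.95% fell. The same members passed the adjusted p alone, where 6.36% rose and 4.31% fell. IL1A reached the filter only through libraries of Control and YAPS127A,S94A, where it was high, so the filter favoured its fall. The IL1A call was also lost without YAPS127A replicate 3 or without YAPS127A,S94A replicate 2. The intervals for IL1B, IL11, CXCL1 and LIF in that comparison all spanned 0, the widest being that of LIF, -0.74 to 0.32.

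The receptors of the members that were found were mostly at low levels. Of 11 listed, 9 were found and 4 tested. CSF1R and IL11RA, the receptors of CSF1 and IL11, were not found, so their levels are unknown. In YAP2SA against Control 0 rose and 1 fell by both limits, where 7.59% of all tested loci rose and 7.86% fell. That one was IL1RAP, the accessory chain of the IL1 receptor, which went from 5.96, 6.45 and 7.50 FPKM in Control to 1.79, 1.90 and 2.13 in YAP2SA, a difference of -1.37 (limma adjusted p = 7.57e-07). IL6R passed the adjusted p alone, at -0.56 (adjusted p = 0.000823). The gp130 gene IL6ST ranged from 21.3 to 51.1 FPKM over the 12 libraries and differed by 0.09, and LIFR differed by -0.05, neither passing. None of the 4 was called in YAPS127A or in YAPS127A,S94A against Control.

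Among 17 other chemokines, 16 were found and 5 tested. In YAP2SA 1 rose and 1 fell by both limits, where 7.59% of all tested loci rose and 7.86% fell. CXCL14, a chemokine of epithelial tissues, had the largest difference of the tested genes in the 6 lists. It was at 0.0725, 0.437 and 0.278 FPKM in Control, 0.297, 0.170 and 0.324 in YAPS127A,S94A, 3.48, 3.13 and 3.37 in YAPS127A and 30.4, 43.0 and 34.7 in YAP2SA. Control and YAPS127A,S94A overlapped, YAPS127A was above both and YAP2SA above all. CXCL14 reached the filter only through YAPS127A and YAP2SA. The differences from Control were 4.87 in YAP2SA (limma adjusted p = 1.14e-09) and 1.79 in YAPS127A (adjusted p = 2.56e-05). CCL5, a T cell chemokine, passed the adjusted p alone in YAP2SA, at 0.41, and in YAPS127A, at 0.48. CCL28, at 3.49 to 6.92 FPKM, did not pass in YAP2SA (-0.25).

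Of 20 other leukocyte cytokines listed, all were found and 9 tested. In YAP2SA against Control 6 rose and 0 fell by both limits, where 7.59% of all tested loci rose and 7.86% fell. IL18, which acts with interleukin-12 on T and natural killer cells, was at 0.178, 0.611 and 0.592 FPKM in Control, 3.20, 1.90 and 2.48 in YAPS127A and 8.01, 8.49 and 9.13 in YAP2SA. It rose by 2.72 in YAP2SA (limma adjusted p = 2.80e-07) and by 1.27 in YAPS127A (adjusted p = 0.000926), and it was at 0.0161 to 0.296 FPKM in YAPS127A,S94A. IL34, the other ligand of the CSF1 receptor, rose by 1.04 (adjusted p = 6.31e-05) from 0.00696 to 0.174 FPKM in Control to 1.05 to 1.44 in YAP2SA. IL32 rose by 1.11 and CLCF1, another gp130 cytokine, by 0.91. IL34 and IL32 reached the filter through YAP2SA alone, and IL18 through YAPS127A and YAP2SA alone. Part of the count of 6 was therefore set by the filter.

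**Figure D4:**
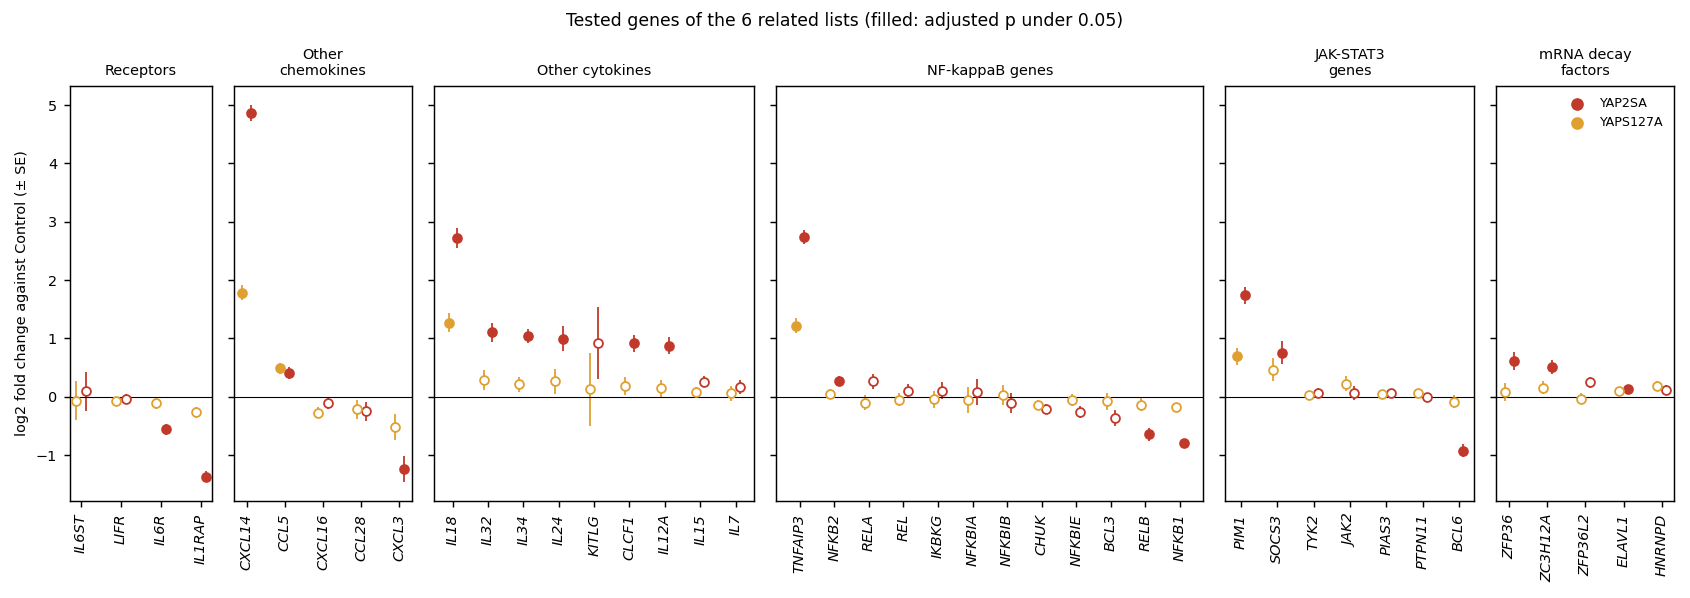
Log2 difference from Control, with SE, of the tested genes of the 6 related lists in YAP2SA and in YAPS127A (n = 3 libraries per group), filled where the adjusted p was under 0.05. CXCL14, TNFAIP3 and IL18 lie highest in YAP2SA, at 4.87, 2.73 and 2.72, and IL1RAP and CXCL3 lowest, at -1.37 and -1.24.

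In the NF-kappaB list, 13 of 15 genes were found, without IKBKB and NFKBIZ, and 12 were tested. By both limits 1 rose and 0 fell in YAP2SA, where 7.59% of all tested loci rose and 7.86% fell. TNFAIP3, whose product A20 limits NF-kappaB signalling and is itself induced by it, was at 1.25, 1.20 and 1.33 FPKM in Control, 1.40, 1.09 and 1.74 in YAPS127A,S94A, 4.0, 4.18 and 4.59 in YAPS127A and 16.2, 14.5 and 11.7 in YAP2SA. It rose by 2.73 in YAP2SA (limma adjusted p = 2.97e-08) and by 1.22 in YAPS127A (adjusted p = 0.000187). The subunit genes NFKB1 and RELB were lower in YAP2SA by -0.80 and -0.64, and NFKB2 higher by 0.27, all past the adjusted p and none past the fold limit. In the JAK-STAT3 list, 8 of 10 were found and 7 tested. JAK1 and STAT3 were not found, so no level of STAT3 itself can be given. By both limits 1 rose and 1 fell in YAP2SA, against the same shares of all tested loci. PIM1, a kinase gene induced by STAT3, was at 3.68 to 3.87 FPKM in Control, 5.94 to 7.26 in YAPS127A and 13.4 to 17.6 in YAP2SA, where it rose by 1.74 (adjusted p = 4.08e-06). In YAPS127A it passed the adjusted p alone, at 0.69 (0.0186). BCL6, a transcriptional repressor, fell by 0.93, and SOCS3, a feedback inhibitor of gp130 signalling, passed the adjusted p alone at 0.75. TYK2, a JAK kinase, was at 22.2 to 28.3 FPKM in all libraries.

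Of 7 listed factors that bind cytokine mRNAs, 5 were found and tested. By both limits 0 were called in either direction in YAP2SA, where 7.59% of all tested loci rose and 7.86% fell. ZFP36, which speeds the decay of such mRNAs, was higher by 0.61 (limma adjusted p = 0.0078), ZC3H12A, an endonuclease that cuts them, by 0.51 (adjusted p = 0.00563), and ELAVL1, which stabilizes them, by 0.13 (adjusted p = 0.0365). ZFP36L2 was at 0.24 and did not pass. No gene of the 6 lists was called in YAPS127A,S94A against Control.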

How the data were processed

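The deposited table, made by the authors, held log2(FPKM + 1) for 31588 entries in 12 libraries (4 groups of 3), on hg19 with UCSC known genes. Per the labels, the submitters' notes name bcl2fastq 2.15.0, Bowtie2 2.0.0, TopHat2 2.0.4 and Cufflinks 2.0.2. It holds no counts, so read depth and counting error are unknown, and FPKM depends on the transcript set and on the other genes of a library. The 3 repeats of identical entries were removed. The 15055 loci with at least 1 FPKM in at least 3 libraries were fitted with limma 3.58.1 (R 4.3.3) in 1 model of the 4 group means, with a variance prior that follows intensity, and p-values were Benjamini-Hochberg adjusted over these loci. A call needed 2 things, an adjusted p below 0.05 and mean FPKM differing more than 2-fold. The script was tested on simulated data. An exact permutation test of 3 against 3 cannot go below 0.1 and was not used. P-values measure the spread between platings of 1 line. Plots used matplotlib 3.10.9. Gene coordinates came from GENCODE on GRCh37. The study's methods and sample records differ on the culture time before lysis. The named genes were the 10 members, up to 4 tested genes per list with the smallest p in YAP2SA against Control, any listed gene called in YAPS127A or YAPS127A,S94A against Control, and the 5 loci most like CSF1. Members and lists were chosen with earlier results of these data known. Alternatives changed the pseudocount, filter, scaling, libraries, replicate block, variance trend and thresholds.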

Additional observations from a re-analysis of the deposited data

How the results depend on the processing

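The 3 members higher and 2 lower in YAP2SA against Control stayed called under every alternative run, and IL6 joined the higher with no filter or one at 0.5 FPKM. In YAPS127A against Control 0 higher became 1 with no fold limit (CSF1), and 0 to 1 with 1 library left out (CCL2, without YAPS127A replicate 2). In YAP2SA against YAPS127A the 1 higher became 2 with no filter or one at 0.5 FPKM (IL6 joined), 3 with no fold limit, and 1 to 3 with 1 library left out (3 without YAP2SA replicate 1, 2 without YAPS127A replicate 2 or 3). The 1 lower became 2, as IL8 joined, with a pseudocount of 0.1 and with median-ratio scaling, and 1 to 2 with 1 library left out (2 without Control replicate 2 or 3 or YAPS127A replicate 1). In YAPS127A against YAPS127A,S94A the 1 lower became 0 at an adjusted p under 0.01, and 0 to 2 with 1 library left out (2 without YAPS127A replicate 2, 0 without YAPS127A replicate 3 or YAPS127A,S94A replicate 2). Signs turned only among differences that were not called, with 1 library left out: IL1B from -0.077 to 0.016 and LIF from -0.22 to 0.26 and CXCL1 from -0.12 to 0.13 in YAPS127A,S94A against Control, LIF from -0.33 to 0.047 in YAPS127A against Control, and IL1B from -0.13 to 0.044, IL11 from -0.14 to 0.054, CXCL1 from -0.057 to 0.19 and LIF from -0.38 to 0.023 in YAPS127A against YAPS127A,S94A. Among other chemokines in YAPS127A against Control, the 1 higher became 2 without Control replicate 1 or YAPS127A replicate 1 or 3. The cause of these changes was not tested.

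With the replicate number as a block, IL8 joined the members lower in YAP2SA than in YAPS127A (2 instead of 1) and no other count of members moved. The numbers did not pair the libraries: over 18 pairs of libraries with the same number the correlation of deviations from the group means ran from -0.15 to 0.16, with 2 over 0.1, and 5 of 12 libraries were closest to their own number. Low members such as IL6, IL1A, IL1B and CXCL2 are limited by a read depth that the table does not give.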
